A study of Homo sapiens with 6 samples.

Results

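The replication-dependent histone genes were followed in HCT116 cells, a widely used line from a human colorectal carcinoma. Members were taken by symbol: H1-1 to H1-6 and every symbol made of H2AC, H2BC, H3C or H4C and a number. Of 25662 genes in the table, 61 matched, of which 5 encode linker histone H1, 16 H2A, 15 H2B, 12 H3 and 13 H4. The symbols that met this rule in the gene name table but had no row here were H1-1, H2AC1, H2BC1, H2BC3, H2BC10, H3C11, H4C7 and H4C13, which were not analysed here. Control cells, which received DMSO and carry 0 h in their titles, gave 3 libraries, and cells exposed to BMH-21 at 1 µM for 24 h gave the other 3. This compound intercalates into DNA and blocks RNA polymerase I, which makes the large ribosomal RNA precursor. All cells grew in McCoy's medium with serum, and the design text calls the replicates biological. Should the controls date from 0 h, the effect of the compound and that of time cannot be told apart.

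Core histones H2A, H2B, H3 and H4 wrap DNA into nucleosomes, and H1 binds the DNA between them. Their replication-dependent genes lie in clusters, are transcribed mainly in S phase, and make messenger RNAs that usually end just after a conserved stem-loop in place of a poly(A) tail. The stem-loop binding protein SLBP and the U7 small nuclear ribonucleoprotein act at that 3' end. Some of these genes can also give longer, polyadenylated transcripts outside S phase, from a site further downstream. In the labels the molecule is given as polyA RNA, while the extraction protocol describes ribosomal RNA removal and random priming. Which of these was done decides how well transcripts without a tail are measured, so the levels below cannot be read as total histone mRNA.

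Stem-loops are shown for some of the members described below, because they mark the 3' end that the library type bears on. H2BC12 and H1-2, the members with the highest means after BMH-21, are not shown, since no stem-loop was found for either. The sequences were read from GENCODE release 29 transcripts, capitals mark the 16-base stem-loop, and 5 bases are given on each side.
H2BC5: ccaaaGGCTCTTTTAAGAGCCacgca
H2AC6: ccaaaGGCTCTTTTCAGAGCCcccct
H2AC25: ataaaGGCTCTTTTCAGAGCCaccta
H2AC18: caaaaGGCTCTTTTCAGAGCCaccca
H2BC21: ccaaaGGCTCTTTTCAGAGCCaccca
H4C14: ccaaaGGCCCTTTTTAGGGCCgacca
H4C5: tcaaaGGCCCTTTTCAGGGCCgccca
A stem-loop was found for 31 members, starting 23 to 68 bases past the stop codon. The form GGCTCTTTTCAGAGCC was present in 17 members, 6 of H2A, 8 of H2B and 3 of H3. The 8 H4 members with a stem-loop had 1 of 2 other forms, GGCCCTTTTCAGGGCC in 5 of them and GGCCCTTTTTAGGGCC in 3. Of the 30 members with none found, 29 have transcripts in that annotation that end within 60 bases of the stop codon, so the letters after that point were not read.

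Most members were scarcely detected. TPM is a transcript's share of its library after division by length. Of the 61 members, 12 were at 0 TPM in all 6 libraries, 23 were above 0 without reaching 1 TPM in any library, and 26 reached 1 TPM in at least 1 library. Sequencing depth is unknown, so no counting interval is given, and a value of 0 says only that the gene is listed at 0. Between 11509 and 12001 genes per library reached 1 TPM. Epithelial markers were present (6 of 6, summed 5340 to 5579 TPM in controls and 11638 to 13219 TPM after BMH-21). Of the blood markers PTPRC, CD3E and HBB, 2 were in the table and summed to at most 0.0506 TPM, while fibroblast markers summed to 1.83 to 4.76 TPM with 2 of 3 at 0, and endothelial markers to at most 0.193 TPM. Control replicate 1 and BMH-21 replicate 3 had the largest shares of mitochondrial transcripts, 25.8% and 26.1%, against 20.3% to 21.6% in the other libraries.

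Transcripts of the histone clusters took a larger share of the library after BMH-21, and the rise came from H1, H2A and H2B. Summed over all 61 members, control libraries held 75.0, 78.03 and 79.6 TPM and BMH-21 libraries 187, 179 and 183 TPM. The groups did not overlap, and the means of 77.6 ± 2.33 and 183 ± 4.06 TPM (SD, n = 3) differed 2.36-fold. On the log2(TPM + 1) scale the difference was 1.23 (SE 0.07, limma adjusted p = 3.4e-06), while the median over all 12041 genes kept was 0.06. In these bulk libraries, a change in the number of S phase cells and a change in histone mRNA per cell cannot be told apart. As a share of all TPM the sum was small, 0.00756% to 0.00803% in controls and 0.0181% to 0.0189% after BMH-21.

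By class, the sums moved unequally. H1 stood at 9.78, 9.05 and 8.95 TPM in controls and 44.3, 41.6 and 41.9 TPM after BMH-21. H2B stood at 19.4, 20.1 and 19.7 TPM in controls and 71.8, 70.8 and 69.9 TPM after BMH-21. For both classes every BMH-21 library was far above every control, and the log2 differences were 2.09 for H1 (SE 0.10, limma adjusted p = 1.5e-06) and 1.79 for H2B (SE 0.08, adjusted p = 9.6e-07). H2A rose less, from 26.4, 30.3 and 27.1 TPM to 53.9, 47.1 and 49.4 TPM, again with no overlap (log2 difference 0.82, SE 0.10, adjusted p = 0.00029).

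H3 was the lowest class, at 2.92, 2.92 and 3.27 TPM in controls and 2.45, 3.70 and 3.25 TPM after BMH-21. H4 was at 16.5, 15.7 and 20.6 TPM in controls and 14.8, 15.9 and 18.8 TPM after BMH-21. In both classes the groups overlapped, with log2 differences of 0.02 for H3 (SE 0.17, limma adjusted p = 0.93) and -0.09 for H4 (SE 0.14, adjusted p = 0.67). Among all features of that fit, 36.3% were called at an adjusted p under 0.05, so the call of 3 of 5 classes is to be read against that share, and 29.6% lay above the controls without overlap. The exact permutation test over the 6 libraries, two-sided, cannot go below 0.10 with 3 against 3. Adjusted over the 5 classes, this exact test gave p = 0.167 for H1, H2A and H2B, p = 1 for H3 and p = 0.75 for H4.

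**Figure D1:**
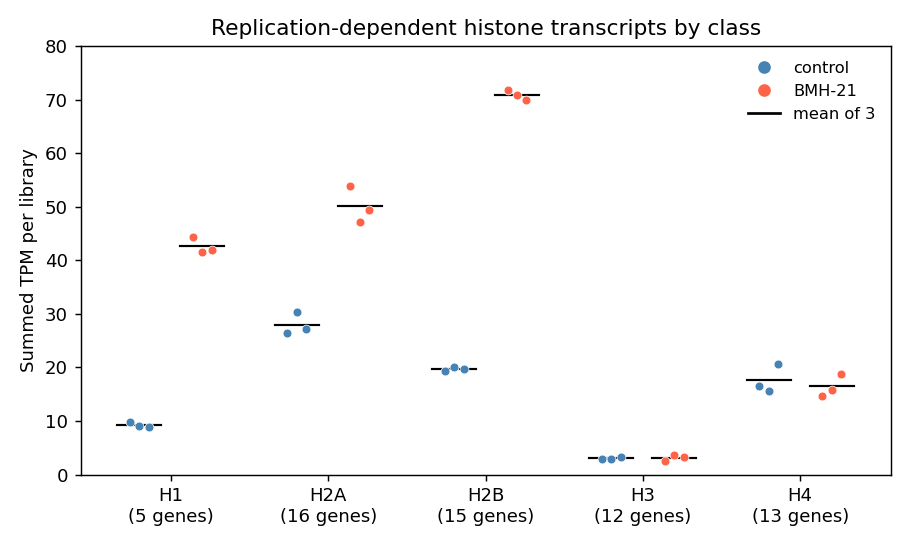
Summed TPM of each histone class (vertical axis, linear) in each library, with 3 control and 3 BMH-21 points per class and a line at the mean. H1, H2A and H2B points lie higher in every BMH-21 library than in any control, while H3 and H4 points overlap.

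A few genes held most of the signal. H1-2, H2BC12, H2AC25, H2BC5, H2AC18 and H2AC6, the 6 members with the highest means after BMH-21, were grouped after their values were seen. They made up 59.7%, 61.6% and 58.4% of the members' sum in controls and 80.7%, 84.2% and 82.2% after BMH-21. The other 55 members together held 30.2, 29.9 and 33.1 TPM in controls (31.1 ± 1.75, SD, n = 3) and 36.1, 28.3 and 32.5 TPM after BMH-21 (32.3 ± 3.86), and these groups overlapped. H1-2 alone made up 94.4% of the H1 sum in controls and 99.6% after BMH-21.

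The filter on low values, at least 1 TPM in at least 3 of 6 libraries, kept 14 members for the test by gene. Of these, 7 had at least 1 TPM in every library 5 reached that level in all 3 libraries of 1 group only (H2AC20 and H4C5 in controls, H2BC11, H2BC21 and H4C14 after BMH-21), and H3C10 and H4C15 passed through libraries of both groups. Among the 14, 9 were called higher, 1 was called lower and 4 did not pass, beside 36.4% called, 19.4% called higher and 16.9% called lower over all genes kept. With no filter on low values, 49 members were tested, of which 9 were higher and 7 lower, beside 9.28% called higher and 8.85% called lower over 21753 genes. Their median log2 difference was then -0.02. Since the filter can keep a gene through its higher group alone, the count among the 14 is no measure of the 61. Among the 49, every BMH-21 library was above every control in 10 members and below in 12, beside 20.1% above and 15.1% below over those genes.

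Among linker histones, H1-2, which encodes H1.2 (GRCh38 chromosome 6, 26055787 to 26056428, minus strand), was the member with the second highest level after BMH-21. Controls held 9.42, 8.49 and 8.31 TPM and BMH-21 libraries 44.0, 41.5 and 41.8 TPM. All 3 BMH-21 libraries lay above all controls, at 4.86 times the control mean (log2 difference 2.16, SE 0.10, limma adjusted p = 1.5e-06). H1-4 stayed under 1 TPM, at 0.367, 0.555 and 0.638 TPM in controls and 0.218, 0.0910 and 0.143 TPM after BMH-21, so its groups separated the other way. H1-3, H1-5 and H1-6, the last a testis gene, were at 0 in all libraries.

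Among H2A genes, the rise was led by H2AC18 and H2AC6. H2AC18 (chromosome 1, 149842188 to 149842736) held 3.92, 3.95 and 4.36 TPM in controls and 11.2, 14.5 and 15.5 TPM after BMH-21. H2AC6 (chromosome 6, 26124145 to 26139116) held 1.94, 4.10 and 2.48 TPM in controls and 11.6, 9.69 and 10.7 TPM after BMH-21. For neither gene did the groups overlap, and the log2 differences were 1.52 for H2AC18 (SE 0.16, limma adjusted p = 0.00014) and 1.64 for H2AC6 (SE 0.22, adjusted p = 0.00053).

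H2AC25, in a separate small cluster (chromosome 1, 228456979 to 228457873), was the most abundant member in controls and changed least among those called. It held 14.6, 16.1 and 15.6 TPM in controls and 20.3, 19.8 and 20.1 TPM after BMH-21, a ratio of the means of 1.30. The groups did not overlap, and the log2 difference of 0.36 passed (SE 0.10, limma adjusted p = 0.026). That call was lost when any library other than BMH-21 replicate 3 was left out (adjusted p up to 0.088).

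H2AC20 (chromosome 1, 149886975 to 149887364) was the only kept member called lower. It went from 1.59, 2.70 and 1.81 TPM in controls to 0.376, 0.475 and 0.810 TPM after BMH-21. Every BMH-21 library lay below every control, with a control mean 3.67 times the BMH-21 mean (log2 difference -0.96, SE 0.18, limma adjusted p = 0.0042). Without any 1 of the controls it no longer met the filter and had no test. Below the filter, H2AC14 was also lower, from 1.17, 1.21 and 0.623 TPM to 0.418, 0 and 0 TPM. H2AC7 had 0.417, 0 and 0 TPM in controls and 1.30, 1.18 and 0.344 TPM after BMH-21, with overlap, and H2AC11 overlapped at 0.619 to 0.783 and 0.724 to 1.29 TPM.

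The 4 kept H2B genes were called higher, beside 19.4% of all genes kept. Of these, H2BC11 and H2BC21 met the filter only through BMH-21 libraries. With no filter, 4 of 13 H2B genes above 0 were called higher and 2 lower, beside 9.28% higher and 8.85% lower over 21753 genes. H2BC12 (chromosome 6, 27146418 to 27146798) was the most abundant member after BMH-21, at 12.8, 12.7 and 13.5 TPM in controls and 44.2, 47.1 and 41.7 TPM after BMH-21. H2BC5 (chromosome 6, 26158146 to 26171349) went from 2.10, 2.77 and 2.22 TPM to 19.8, 18.2 and 20.9 TPM. Both groups of values were far apart, 3.40-fold for H2BC12 (log2 difference 1.69, SE 0.10, limma adjusted p = 4.0e-06) and 8.31-fold for H2BC5 (log2 difference 2.62, SE 0.15, adjusted p = 3.7e-06). H2BC5 had the largest difference of the 14 kept members, by log2 difference and by ratio of the means.

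The other H2B genes were at low levels. H2BC11 held 0.260, 0.758 and 1.00 TPM in controls and 3.57, 2.27 and 2.89 TPM after BMH-21 (log2 difference 1.24, SE 0.21, limma adjusted p = 0.0022). H2BC21 held 0.397, 0.331 and 0.652 TPM in controls and 1.27, 1.11 and 1.503 TPM after BMH-21 (log2 difference 0.66, SE 0.15, adjusted p = 0.0086). Both genes were above all controls in every BMH-21 library. When any BMH-21 library was left out, H2BC21 no longer met the filter and had no test. H2BC4, at 0.280 to 0.850 TPM in controls and 0.710 to 1.35 TPM after BMH-21, and H2BC15, at 0.299 to 0.718 and 0.632 to 1.19 TPM, were not kept and overlapped.

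H3 genes were low in both groups. H3C10, the only kept H3 gene (chromosome 6, 27810064 to 27811300), held 0.958, 1.28 and 1.87 TPM in controls and 0.969, 1.46 and 1.33 TPM after BMH-21. The groups overlapped fully, with a log2 difference of -0.06 (SE 0.18, limma adjusted p = 0.82). H3C6 reached 1 TPM in a single library and was not kept, at 0.156, 0.232 and 0.477 TPM in controls and 0.580, 0.848 and 1.03 TPM after BMH-21. With no filter H3C6 was called higher, close to the threshold (log2 difference 0.50, limma adjusted p = 0.049). It was the only member below the filter whose BMH-21 libraries all lay above the controls.

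Of the 4 kept H4 genes, 1 was called higher and 3 did not pass, beside 19.4% called higher over all genes kept. H4C14 (chromosome 1, 149832659 to 149839767) held 3.37, 2.48 and 0.306 TPM in controls and 6.54, 3.54 and 7.20 TPM after BMH-21. The groups did not overlap, though control replicate 3 was far under the other controls, and the log2 difference of 1.27 passed (SE 0.43, limma adjusted p = 0.047). The call was lost with no filter (adjusted p = 0.14), and without control replicate 3 the difference was 0.75 (adjusted p = 0.088). A pseudocount of 0.1 (adjusted p = 0.077), no variance trend (adjusted p = 0.065) and leaving out mitochondrial genes (adjusted p = 0.0505) also removed the call. The H4C14 call was lost as well without control replicate 2, at 1.45 (adjusted p = 0.052), without BMH-21 replicate 1, at 1.17 (adjusted p = 0.12), and without BMH-21 replicate 3, at 1.11 (adjusted p = 0.12).

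H4C12 (chromosome 6, 27831216 to 27831527) was the most abundant H4 gene in controls, at 7.52, 7.36 and 9.89 TPM, and stood at 5.86, 4.23 and 6.68 TPM after BMH-21. Its BMH-21 libraries lay below all controls, while the log2 difference of -0.50 missed the threshold (SE 0.19, limma adjusted p = 0.074). H4C5 held 1.51, 1.96 and 2.11 TPM in controls and 1.03, 0.678 and 1.70 TPM after BMH-21, with overlap (log2 difference -0.44, SE 0.20, adjusted p = 0.11). Both passed as lower without BMH-21 replicate 3, at -0.62 for H4C12 (adjusted p = 0.034) and -0.63 for H4C5 (adjusted p = 0.024). Under trimmed mean scaling they were likewise called lower (limma adjusted p = 0.017 and 0.040) and under quantile normalization (adjusted p = 0.025 and 0.042).

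Below the filter, H4C1 was the H4 gene that passed as lower in the fit with no filter (limma adjusted p = 0.0035). It held 1.37, 1.76 and 0.812 TPM in controls and was listed at 0 in all BMH-21 libraries. H4C3 went from 0.732, 0.337 and 1.07 TPM to 0.293, 0.152 and 0 TPM, and H4C16, the lone chromosome 12 gene, from 0.609, 0.849 and 1.62 TPM to 0.241, 0.253 and 0.486 TPM. For these 3 genes the groups did not overlap, but H4C3 and H4C16 did not pass with no filter (adjusted p = 0.077 and 0.089). H4C2, at 0.951, 0.330 and 2.09 TPM in controls and 0.286, 0.450 and 0 TPM after BMH-21, did overlap (adjusted p = 0.19).

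**Figure D2:**
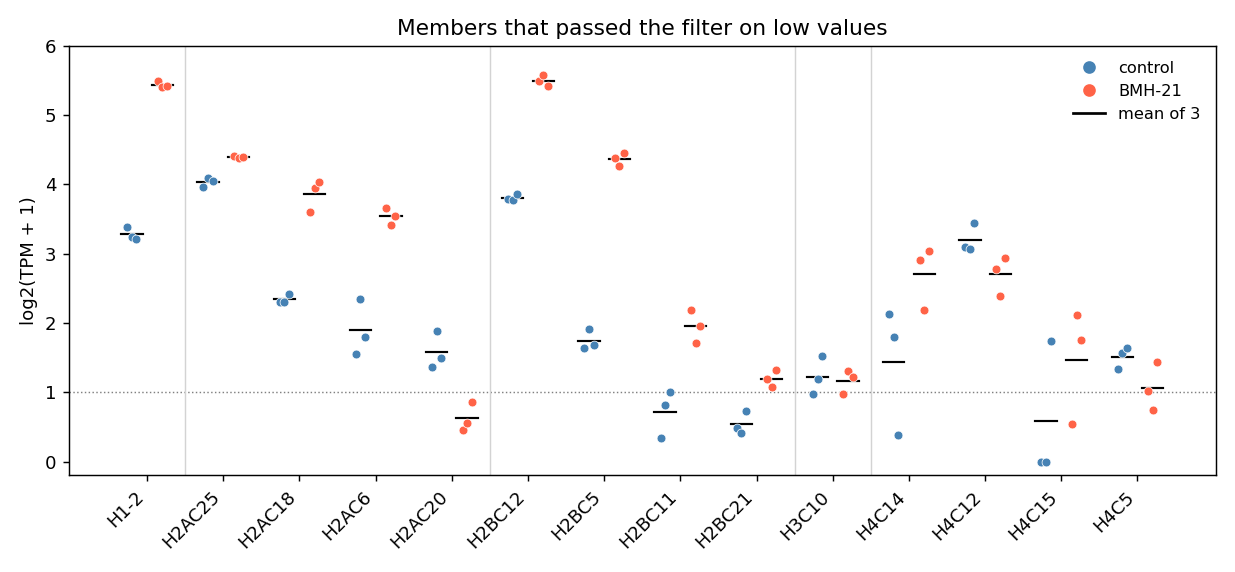
Level of each of the 14 kept members in each library, as log2(TPM + 1), grouped by class from H1 to H4, with lines at the means and a dotted line at 1 TPM. BMH-21 points lie above the controls for H1-2, H2BC12, H2BC5, H2AC18, H2AC6, H2AC25, H2BC11, H2BC21 and H4C14 and below them for H2AC20 and H4C12.

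Over the 35 members that were above 0 in some library without passing the filter, 21 had a lower mean after BMH-21 and 14 a higher one. The filter had already taken out members that were high in either group, so this split is no measure of the clusters. In 10 of the 35 every BMH-21 library was below every control, and in 1, H3C6, every BMH-21 library was above. Over the 21753 genes tested with no filter, a set not narrowed in this way, 15.1% were below and 20.1% above. Of these 10, H2AC12, H2BC13, H2BC7, H3C13 and H4C1 were above 0 in all controls and listed at 0 in all BMH-21 libraries, and the other 5 were H1-4, H2AC14, H2BC17, H4C3 and H4C16. At such levels a difference can rest on few reads, and depth is unknown.

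**Figure D3:**
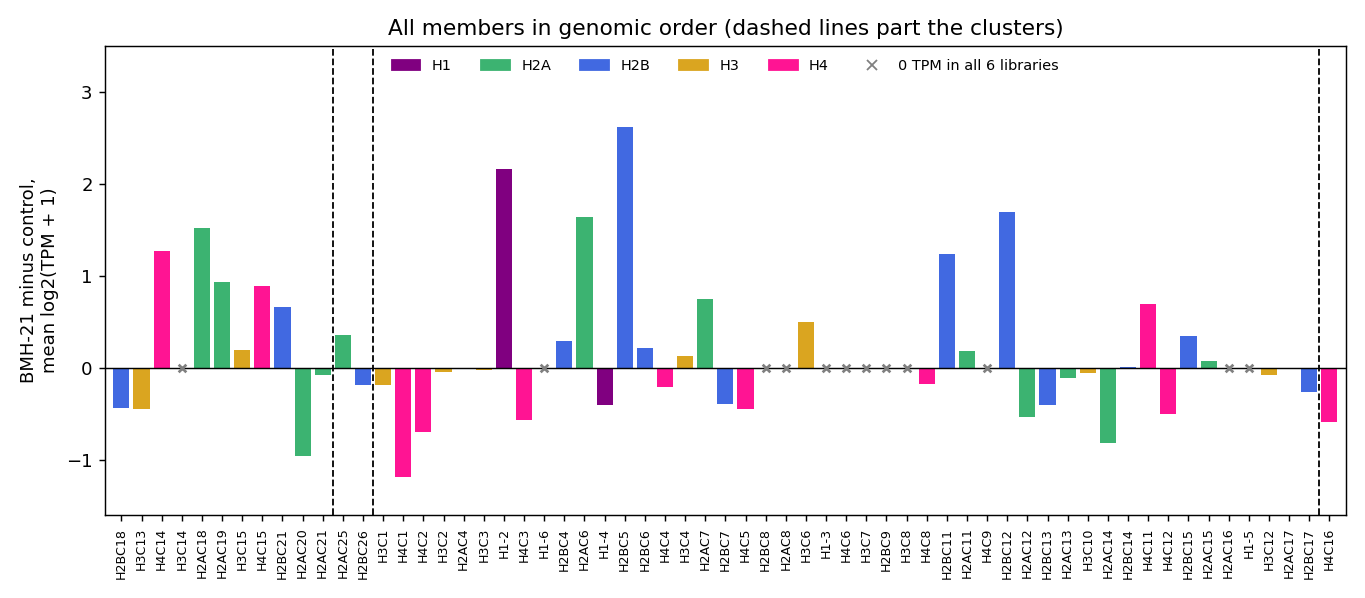
Difference in mean log2(TPM + 1), BMH-21 minus control, for all 61 members in genomic order, coloured by class, with dashed lines between clusters and crosses at the 12 members listed at 0 throughout. The tallest bars are those of H2BC5, H1-2, H2BC12, H2AC6 and H2AC18, and the longest bar below 0 is that of H4C1.

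Identical copies complicate the values of single genes. In 4 pairs the coding sequences were the same letter for letter: H2AC18 with H2AC19, H3C14 with H3C15, H4C11 with H4C12, and H4C14 with H4C15. Their RefSeq promoters were 98.3% to 100% identical. In the other 47 members with a class mate of equal coding length, the closest copy differed at 12 or more bases. H2AC19 was at 0 except for 5.91 TPM in BMH-21 replicate 1, the library in which H2AC18 was lowest of its group. H4C11 was at 0 except for 3.23 TPM in BMH-21 replicate 2, where H4C12 was lowest of all 6 libraries. H4C15 held 0, 0 and 2.34 TPM in controls, the last in the library where H4C14 fell to 0.306 TPM, and 0.453, 3.33 and 2.36 TPM after BMH-21 (log2 difference 0.89, SE 0.53, limma adjusted p = 0.22).

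Sums over each pair, a choice made after seeing the data, were steadier. H4C14 and H4C15 together held 3.37, 2.48 and 2.64 TPM in controls and 6.99, 6.87 and 9.56 TPM after BMH-21, so that control replicate 3 no longer stood apart. The pair rose by a log2 difference of 1.19 (SE 0.18, limma adjusted p = 0.0012), and the call held with each library left out (adjusted p up to 0.0072). H2AC18 and H2AC19 together rose by 1.71 (SE 0.14, adjusted p = 2.9e-05). H4C11 and H4C12 together held 7.52, 7.36 and 9.89 TPM in controls and 5.86, 7.46 and 6.68 TPM after BMH-21, with overlap (log2 difference -0.27, SE 0.17, adjusted p = 0.24), so the separation of H4C12 alone was not seen in the pair. H3C14 was at 0 throughout, and H3C15 overlapped at 0.233 to 0.561 and 0.490 to 0.784 TPM.

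By location, the members fell into 4 groups with gaps over 1 Mb. The large chromosome 6 cluster (26020490 to 27893843) holds 47 members with all 5 H1 genes, and its sum rose from 49.8 ± 2.02 to 136 ± 3.10 TPM (SD, n = 3; log2 difference 1.44, SE 0.07, limma adjusted p = 2.0e-06). The chromosome 1 cluster at 149782689 to 149887916, with 11 members, rose from 10.98 ± 0.45 to 26.2 ± 2.25 TPM (1.18, SE 0.11, adjusted p = 8.6e-05). A pair further along chromosome 1 (228456979 to 228460470), H2AC25 and H2BC26, went from 15.7 ± 0.42 to 20.2 ± 0.27 TPM (0.34, SE 0.10, adjusted p = 0.029), a call lost whenever a library other than BMH-21 replicate 3 was left out. In the larger chromosome 1 cluster H2AC18 rose and H2AC20 fell.

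Many H2A and H2B genes share a promoter region. In 11 pairs an H2A and an H2B gene start 193 to 247 bases apart and point away from each other. The promoters of H2BC21 and H2BC12 are shown because each also spans the start of its H2A partner, H2AC20 and H2AC12, and those of H2BC5 and H1-2 because these genes rose most. They are RefSeq sequences (GRCh38.p14), 250 bases before to 50 after the start, read 5' to 3' on the gene's strand, at chr1:149886633-149886932 (minus) for H2BC21, chr6:27146809-27147108 (minus) for H2BC12, chr6:26157871-26158170 (plus) for H2BC5 and chr6:26056421-26056720 (minus) for H1-2. Capitals mark the motif TATAAA, the CCAAT box, the octamer ATTTGCAT and the motif AAACACA, each on either strand, and touching motifs run together.
H2BC21: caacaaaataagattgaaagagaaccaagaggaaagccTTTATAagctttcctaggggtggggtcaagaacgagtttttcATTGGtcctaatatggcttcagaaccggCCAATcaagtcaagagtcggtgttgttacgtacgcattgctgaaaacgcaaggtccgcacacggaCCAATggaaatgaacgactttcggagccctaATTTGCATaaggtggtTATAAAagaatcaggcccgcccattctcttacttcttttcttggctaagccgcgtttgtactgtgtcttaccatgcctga
H2BC12: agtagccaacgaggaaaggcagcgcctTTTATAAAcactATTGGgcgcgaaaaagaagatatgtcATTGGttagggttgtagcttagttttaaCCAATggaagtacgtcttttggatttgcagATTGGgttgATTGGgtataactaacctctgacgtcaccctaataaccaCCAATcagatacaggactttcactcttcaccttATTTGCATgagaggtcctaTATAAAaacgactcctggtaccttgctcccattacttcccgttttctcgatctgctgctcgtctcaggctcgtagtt
H2BC5: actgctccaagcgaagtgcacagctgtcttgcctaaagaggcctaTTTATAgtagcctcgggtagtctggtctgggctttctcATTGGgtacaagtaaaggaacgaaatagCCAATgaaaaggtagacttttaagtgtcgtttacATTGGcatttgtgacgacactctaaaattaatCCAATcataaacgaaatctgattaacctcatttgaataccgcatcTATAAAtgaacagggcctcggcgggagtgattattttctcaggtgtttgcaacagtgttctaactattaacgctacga
H1-2: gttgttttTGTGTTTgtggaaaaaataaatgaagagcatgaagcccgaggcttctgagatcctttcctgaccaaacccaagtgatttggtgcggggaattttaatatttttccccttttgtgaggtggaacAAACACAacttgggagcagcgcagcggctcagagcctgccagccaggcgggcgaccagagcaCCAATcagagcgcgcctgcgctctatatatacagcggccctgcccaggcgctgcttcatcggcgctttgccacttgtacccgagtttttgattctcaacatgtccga
The octamer ATTTGCAT, known as a binding site of OCT1, lies at the same distance from the start in H2BC21 and H2BC12 and is not in the H2BC5 window.

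Over the 57 members in the promoter table, the octamer was found in 22, 11 of 15 H2B and 10 of 15 H2A genes but none of the H1 and H4 genes, and in 1.77% of all 35116 promoters. These are counts of genes, not of distinct sites, since windows of divergent partners overlap and can hold the same octamer. The H3 gene with an octamer, H3C4, has the same window as H2AC7. TATAAA was found in 36 members (63.2%, against 11.5% of all promoters) and CCAAT in 48 (84.2%, against 34.6%). AAACACA was found in 8 members, among them all 5 H1 genes, and in 5.64% of all promoters. The H1-2 window holds AAACACA on both strands and CCAAT but no TATAAA. The motifs can overlap, as TATAAA and its reverse do in H2BC12, and a match is a description of letters, not of a bound site.

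Partners across a shared promoter region had unequal levels. H2BC12 rose from a mean of 13.0 to 44.3 TPM while its partner H2AC12 held 0.783, 0.271 and 0.343 TPM in controls and was listed at 0 after BMH-21. H2AC6 rose from 2.84 to 10.7 TPM beside H2BC4 at 0.631 and 0.992 TPM, and H2BC11 from 0.674 to 2.91 TPM beside H2AC11 at 0.716 and 0.956 TPM. In the pair of H2BC21 and H2AC20, whose starts lie 235 bases apart, the H2B gene was called higher and the H2A gene lower. Their means were low, 0.460 and 1.30 TPM for H2BC21 and 2.03 and 0.553 TPM for H2AC20. Each met the filter only through the group where it was higher, so the opposite calls are no test of the pair. H2AC25 stood at 15.4 and 20.04 TPM beside H2BC26 at 0.320 and 0.132 TPM. In the other 6 pairs no mean exceeded 1.00 TPM.

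**Figure D4:**
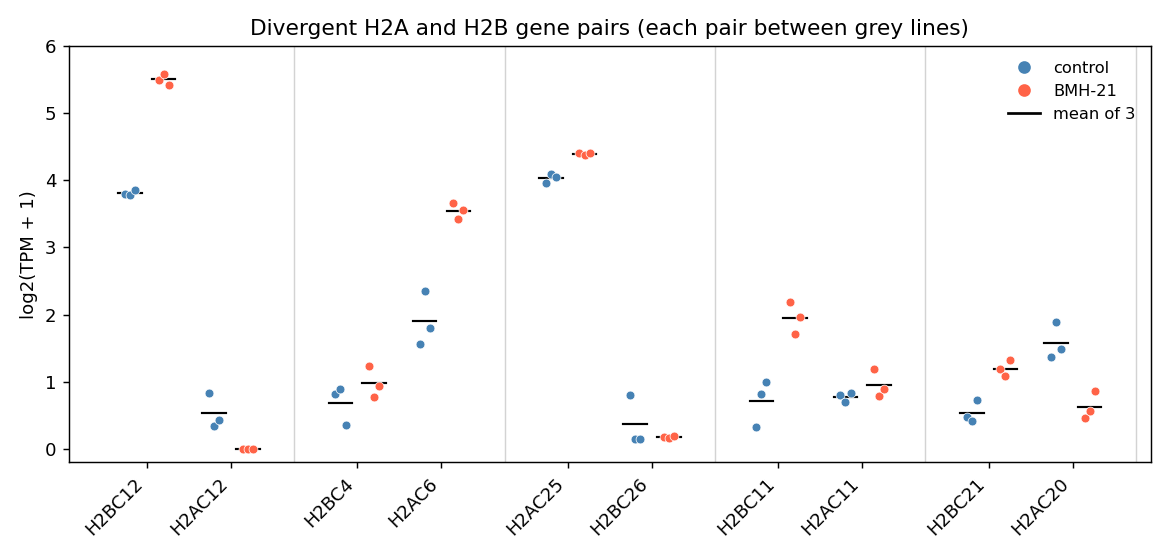
Levels as log2(TPM + 1) in each library for 5 divergent H2A and H2B pairs, with grey lines between pairs and black lines at the means. In each of the pairs at least 1 gene is higher in all BMH-21 libraries than in controls, and H2AC12 and H2AC20 are lower.

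Members were also described by their annotated 3' end. In GENCODE 29 or RefSeq, 26 members have an annotation that runs over 200 bases of genome past the stop codon, the shortest of them 261 bases, while in the other 35 it ends at most 126 bases past it. Where these sources disagreed the longer annotation was taken, and the splits below depend on that choice. H2BC12 runs 0 bases past the stop codon in GENCODE and 8125 in RefSeq. H4C14, H2AC6, H2AC25 and H2BC11 pass 200 bases in GENCODE only, with 56, 65, 61 and 54 in RefSeq. The longer form is present for H2BC5, H2BC12, H2BC21, H2BC11, H2AC6, H2AC25, H4C14 and H4C15, all with higher means after BMH-21, and also for H3C10 and H4C5. Summed, the 26 members with the long form held 43.5, 47.9 and 46.6 TPM in controls and 115, 111 and 116 TPM after BMH-21. The 35 others held 31.5, 30.1 and 33.0 TPM in controls and 72.0, 67.6 and 66.8 TPM after BMH-21, so both sums were higher with no overlap. The rise of the second sum lay in H1-2 and H2AC18, which were set apart after their values were seen. Without these genes, the remaining 33 members held 18.2, 17.7 and 20.3 TPM in controls. After BMH-21 these 33 held 16.8, 11.6 and 9.54 TPM, below all controls. Since genes were taken out because they rose, the remainder was bound to shift down. No gene was taken out of the 26, so the sums are not alike. The copy of H2AC18, H2AC19, at 5.91 TPM in BMH-21 replicate 1, stayed among the 33.

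Of the members above 0 somewhere, 14 members with the long form had higher means after BMH-21 and 7 lower, against 10 higher and 18 lower among those with the short form. All 5 H1 members have the short form. Within H2A, the 3 long members went from 17.2, 20.8 and 18.9 TPM to 33.2, 30.2 and 31.7 TPM, a 1.67-fold difference of the means, and the 13 short members from 9.13, 9.49 and 8.20 TPM to 20.7, 16.9 and 17.7 TPM, a 2.06-fold difference. H2AC18 alone made up 45.6% of that short H2A sum in controls and 74.3% after BMH-21. With its copy H2AC19 it went from a mean of 4.08 to 15.7 TPM, while H2AC20 in the same sum fell. In H3 both sums overlapped, at 1.52 to 2.58 and 2.09 to 3.15 TPM for the 5 long members and 0.684 to 1.40 and 0.102 to 0.901 TPM for the 7 short ones. Within H4, the 6 long members went from 5.97, 5.46 and 6.37 TPM to 8.32, 7.80 and 11.9 TPM, while the 7 short members went from 10.6, 10.2 and 14.2 TPM to 6.44, 8.06 and 6.94 TPM. Within H2B, the 12 long members went from 18.8, 19.6 and 18.7 TPM to 71.6, 70.7 and 69.8 TPM, while the 3 short members went from 0.613, 0.534 and 0.957 TPM to 0.267, 0.0962 and 0.0991 TPM. These splits are descriptions without a test. Which transcript form gave the reads cannot be told apart in values per gene, and the annotation the authors used is not given in the sources used here.

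**Figure D5:**
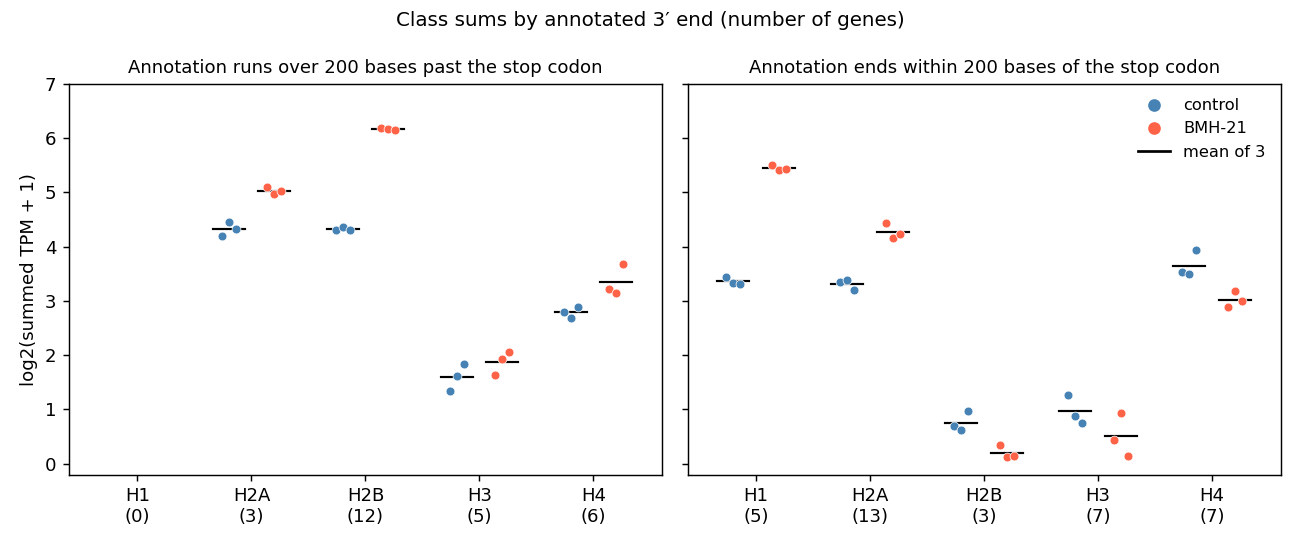
Summed level of each class, as log2(summed TPM + 1), split by whether the annotation runs over 200 bases past the stop codon (left) or not (right), with the number of genes under each class. In H2B and H4 the sums of genes with the long form are higher after BMH-21 and those with the short form lower, while in H1 and H2A the short form sums are higher. For H2BC12 the long form is in RefSeq only and for H4C14 in GENCODE only, so the split depends on taking the longer annotation.

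Of 32 listed genes for its transcription, 3' processing and decay, 28 were kept, of which 4 were higher, 9 lower and 15 did not pass, beside 19.4% called higher and 16.9% lower over all genes, with a median log2 difference of 0.07. SLBP, which binds the stem-loop, fell from 58.2, 81.4 and 80.7 TPM in controls to 36.4, 33.9 and 41.5 TPM after BMH-21 (log2 difference -0.95, SE 0.14, limma adjusted p = 0.0011). CDK2, the kinase that acts with cyclin E on the histone gene coactivator NPAT, fell from 72.5, 91.7 and 80.8 TPM to 21.6, 21.1 and 25.3 TPM (log2 difference -1.80, SE 0.12). All BMH-21 libraries were below all controls for both genes.

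Cyclin E2 (CCNE2) fell by 1.12 on the log2 scale, while cyclin E1 (CCNE1) did not pass at 0.08. The Sm protein SNRPB, of spliceosomal and U7 particles, fell by 0.95, and the cap complex partner ARS2 (SRRT) by 0.72, while the cap-binding subunit NCBP2 rose by 0.65 (limma adjusted p = 0.024). The NCBP2 call was lost with no filter (adjusted p = 0.074) and on leaving out either control replicate 1 or BMH-21 replicate 3 (adjusted p up to 0.063), and over all alternatives its value ran from 0.31 to 0.76. NPAT, at 0.445 to 0.604 TPM in controls and 0.280 to 0.325 TPM after BMH-21, and CASP8AP2, at 0.640 to 1.01 and 0.355 to 0.612 TPM, were below the filter, without overlap in either gene.

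For comparison, all 28 listed genes of DNA replication were lower, beside 16.9% of all genes kept, with a median log2 difference of -2.75, led by CDT1, GINS2, CDC6, CDC45, FEN1 and MCM2 at -5.00 to -3.99. Among 12 genes of histone variants made outside the clusters, 11 were kept, of which 7 were lower, none was higher and 4 did not pass, beside the same 16.9% lower and 19.4% higher over all genes, with a median of -0.82. H2AX, whose mRNA can end at a stem-loop or in a poly(A) tail, went from 202, 178 and 171 TPM in controls to 32.3, 36.3 and 36.6 TPM after BMH-21 (log2 difference -2.35, SE 0.09, limma adjusted p = 4.9e-07). The centromeric H3 variant CENPA, H2AZ1, H1-10, H2AZ2 and MACROH2A2 had differences of -3.87, -2.0, -1.26, -1.23 and -0.82. The difference between these lists and the cluster genes was not tested.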

How the data were processed

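RNA was measured by sequencing in 6 libraries of HCT116 cells, 3 control and 3 given BMH-21. The deposited values are TPM per gene and library, made by the authors, with STAR, Salmon and GRCh38 named in the submitters' processing notes without versions. No source used here gives the annotation, strand setting or filters. TPM has depth divided out, so the depth per library is unknown, and the number of libraries limits the precision.

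All 61 member symbols were matched to GENCODE release 29, 57 by gene ID and 4 by the symbol of that release, and to RefSeq, with 57 in the promoter table. Proteins were not used here. The test was limma 3.58.1 (R 4.3.3) on log2(TPM + 1), with an intensity trend and no covariate, over genes with at least 1 TPM in at least 3 of 6 libraries. P-values are two-sided, Benjamini-Hochberg adjusted over all features kept (12041 genes), and called under 0.05. Log2 differences are on the log2(TPM + 1) scale and understate changes of low genes. Sums by class, location, pair and over all members replaced the member rows before the fit. The fit was tested on simulated libraries. Every member that reached 1 TPM in some library is named, and of each context list up to 6 called genes with the largest differences plus SLBP, NPAT, CASP8AP2, CCNE1 and H2AX, and 1 further gene of that rule is not reported here. The members and lists were chosen with earlier results of these data known. Alternatives covered the pseudocount, filter, scaling, variance trend, a replicate block and libraries left out.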

Additional observations from a re-analysis of the deposited data

How the results depend on the processing

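Of 255 recomputed values for 17 results over sums and counts, 226 kept their direction and side of the threshold or, for counts, stayed within 1.5 times. The sums of all members, of H1, H2A and H2B and of the large chromosome 6 and chromosome 1 clusters kept theirs in all 15 alternatives. The H3 sum, never called, was -0.034 with a trimmed mean, -0.0035 with quantile normalization and -0.075 to 0.15 with libraries left out, and the H4 sum, never called, -0.22 to 0.024 with libraries left out. Members called higher numbered 9 in the main fit and 6 to 8 with a library left out, fewest without BMH-21 replicate 1. The number of members called lower was 7 with no filter, 3 with a trimmed mean, 3 with quantile normalization, 2 without mitochondrial genes, 2 with the replicate block, 2 without control replicate 1 and BMH-21 replicate 3, and 0 to 3 with a library left out. It was 0 without control replicate 1, 2 or 3, since H2AC20 then failed the filter, and 3 without BMH-21 replicate 3. For the H2AC25 and H2BC26 sum, the log2 difference was 0.27 with a trimmed mean (adjusted p = 0.082), 0.34 without mitochondrial genes (adjusted p = 0.050), 0.34 with the replicate block (adjusted p = 0.079) and 0.32 to 0.36 with a library left out. The histone mRNA list had 5 to 12 genes lower with libraries left out, and 5 without control replicate 2 or 3. The variant list had 1 gene higher, H2AJ, with the replicate block, without BMH-21 replicate 3, and without this library and control replicate 1. With libraries left out, H3C10 ranged from -0.22 to 0.087 and CCNE1 from -0.11 to 0.15. The cause of these shifts was not tested unless named. Of 14 kept members, 8 kept direction and call in every setting that gave a value. Among these 8, H2AC20 and H2BC21 failed the filter and had no value in some settings. Same-numbered libraries did not deviate together (correlations 0.04, -0.14 and 0.02). With 3 libraries per group, these values cannot settle whether the numbers pair the libraries. Under the block H4C12 (adjusted p = 0.048) and H4C15 (adjusted p = 0.015) passed while H2AC25 did not (adjusted p = 0.066). Unknown depth limits what can be said of members under 1 TPM.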
